A study of Mus musculus with 3 samples.

Results

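The 37 DNA repair genes described here were taken from the 33696 genes of the count matrices by their symbols, each of which matched 1 gene. They comprised 11 genes of homologous recombination, 6 of the Fanconi anaemia pathway, 3 of end joining, 6 of base excision repair and strand-break sensing, 4 of nucleotide excision repair, 2 of mismatch repair, 4 checkpoint kinases and the alkyltransferase Mgmt. The study asked how the antidepressant venlafaxine acts in mouse skin with chemotherapy-induced hair loss, and it profiled dissociated dorsal skin by droplet single-cell RNA sequencing with a 3′ kit. The 3 groups were CIA+VFX (the chemotherapy-induced alopecia model given venlafaxine), CIA (the model alone) and Cont (vehicle). All mice were C57BL/6 females aged 9 weeks, and all skin came from areas depilated with wax strips, so the vehicle group also carried depilated skin. Each group was 1 library of pooled skin. The labels used here give neither the number of mice pooled nor the chemotherapy drug, its dose or the day of sampling. With 1 library per group no difference had a replicate check and no test was made. Intervals given below are exact 95% intervals that cover counting error only.

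DNA repair pathways differ in how closely they are tied to DNA replication. Homologous recombination copies the sister chromatid and works together with the Fanconi anaemia proteins, which handle crosslinks and stalled forks, so both act mainly in cells that are replicating or have just replicated their DNA. End joining, nucleotide excision repair and the direct reversal of alkyl damage by Mgmt can act in cells at rest as well. Skin with growing hair follicles holds many dividing keratinocytes, above all in the follicle bulb, beside resting epithelial, dermal and immune cells.

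The promoters shown are those of the recombination genes Brca2 and Bard1 and of the replication ligase Lig1, chosen because a window of each holds an E2F-type site and because they were at least 2-fold higher in cycling keratinocyte-like cells of every library, and that of Mgmt, which was not higher in cycling cells and which differed most between CIA and Cont. They are RefSeq windows from 250 bases before to 50 after a transcription start on GRCm38.p6, whereas the count files used GRCm39. Of the 37 members, 33 matched a RefSeq window. Capitals mark the letters TTTGGCGC, TTTGCCGC, TTTCGCGC or TTTCCCGC, which are E2F-type sites, and TTTGAA, a cell cycle homology region core, each searched on both strands. The marked letters do not overlap each other in these windows. The Brca2 window lies at chr5:150522371-150522670 on the plus strand and the Bard1 window at chr1:71102923-71103222 on the minus strand. The Lig1 window, the second of 3 and the 1 with an E2F-type site, lies at chr7:13278576-13278875 on the plus strand, and the Mgmt window, the first of 2, at chr7:136894336-136894635 on the plus strand.
Brca2: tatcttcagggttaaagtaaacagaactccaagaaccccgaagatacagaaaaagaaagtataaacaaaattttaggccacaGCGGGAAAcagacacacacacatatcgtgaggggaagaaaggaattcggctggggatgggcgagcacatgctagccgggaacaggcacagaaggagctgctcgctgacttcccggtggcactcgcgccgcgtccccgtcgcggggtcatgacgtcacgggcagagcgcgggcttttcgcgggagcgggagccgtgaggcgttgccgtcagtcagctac
Bard1: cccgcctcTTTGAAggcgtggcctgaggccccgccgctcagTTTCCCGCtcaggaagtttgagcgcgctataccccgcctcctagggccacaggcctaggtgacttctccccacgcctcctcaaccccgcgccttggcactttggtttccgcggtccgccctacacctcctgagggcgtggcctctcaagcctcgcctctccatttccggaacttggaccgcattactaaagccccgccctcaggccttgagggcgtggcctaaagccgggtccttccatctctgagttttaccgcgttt
Lig1: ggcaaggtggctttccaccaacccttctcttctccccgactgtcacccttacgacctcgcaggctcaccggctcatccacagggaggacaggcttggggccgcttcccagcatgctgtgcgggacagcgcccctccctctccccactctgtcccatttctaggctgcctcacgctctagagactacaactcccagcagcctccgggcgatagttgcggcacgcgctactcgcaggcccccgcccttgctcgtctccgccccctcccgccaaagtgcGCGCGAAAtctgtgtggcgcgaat
Mgmt: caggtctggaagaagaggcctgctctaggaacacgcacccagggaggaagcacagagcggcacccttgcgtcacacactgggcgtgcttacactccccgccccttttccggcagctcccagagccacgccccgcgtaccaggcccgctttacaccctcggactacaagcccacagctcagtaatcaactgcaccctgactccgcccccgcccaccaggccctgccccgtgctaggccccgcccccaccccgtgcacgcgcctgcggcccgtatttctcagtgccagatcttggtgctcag
The E2F-type letters were in a window of 6 of the 33 members (Brca2, Bard1, Xrcc6, Lig1, Msh6 and Chek2), and in a window of 2.61% of all 27025 genes with one. The TTTGAA core was in 2 of the 33 members, Bard1 and Ercc5, against 20.2% of all genes, and CCAAT was in 21 of 33, against 41.1%. Of the 16 matched members that were at least 2-fold higher in cycling keratinocyte-like cells of every library, 3 held the E2F-type letters, the 3 printed above. The windows of Brca1, Rad51ap1 and Blm, with higher ratios than Brca2, held none of them.

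The libraries held 18987 (CIA+VFX), 17675 (CIA) and 14529 (Cont) cell barcodes with medians of 4923 to 5950 unique molecular identifiers (UMIs, counted transcripts) and totals of 130557879 to 155210692 UMIs, and 15372, 15401 and 11904 cells were kept. Any pair of libraries shared between 75 and 110 barcodes. Cells were given to 22 classes by marker genes, named here as marker-like, and to cycling or noncycling states by 28 G2/M and 24 S phase genes, none of them a member. Each named class had at least 1 of its own markers among its 10 leading genes. Keratinocyte-like cells, 7 follicular and epidermal classes plus keratinocytes of no called class, numbered 5508, 3453 and 3722, and Krt25, Krt17, Krt71 and Krt14 were among their leading genes. The keratinocytes of no called class had Krt75 and the proliferation genes Anln and Pclaf among theirs. Of the keratinocyte-like cells with at least 2000 UMIs, 38.6%, 34.5% and 32.2% were cycling after thinning every cell to 2000 UMIs. Without thinning, 66.6%, 65.4% and 71.4% of all keratinocyte-like cells were cycling, those under 2000 UMIs included. Just inside the cycling threshold lay 429, 283 and 260 keratinocyte-like cells. Levels are UMIs summed over the cells of a class and state, as counts per 1000000 UMIs of those cells (CPM), and members are compared where both sides held at least 50 UMIs in sum. In the annotation at hand, 16 members overlap a gene on the other strand, and 3 (Rad54b, Fancc and Pms2) a gene on the same strand. Whether counting used strand is not given in the sources used here.

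Most repair genes were higher in cycling than in noncycling keratinocyte-like cells, and the recombination genes led them. In each library 27 of the 37 members were at least 1.5-fold higher and 0 were at least 1.5-fold lower. Among all measured genes the shares were 15.5%, 14.5% and 19.2% higher and 23.1%, 18.7% and 26.5% lower in the CIA+VFX, CIA and Cont libraries. The median log2 ratio of the members was 1.16, 1.38 and 1.13, against -0.06, -0.03 and -0.02 over all measured genes. Of the members, 25 passed 1.5-fold in every library, 20 passed 2-fold, 13 passed 4-fold, and 6 passed 8-fold: Brca1, Rad51ap1, Rad54b, Blm, Exo1 and Lig1.

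Homologous recombination starts with the ubiquitin ligase pair Brca1 and Bard1. Brca1 had 55.5, 42.9 and 57.9 CPM in cycling cells of the CIA+VFX, CIA and Cont libraries, against 3.39, 3.19 and 4.64 CPM in noncycling cells, log2 ratios of 4.04 (95% interval 3.72 to 4.37), 3.75 (3.34 to 4.19) and 3.64 (3.37 to 3.92). Bard1 had 37.2, 30.7 and 36.6 CPM in cycling cells, against 5.29, 3.31 and 4.02 CPM in noncycling cells. Both genes were at least 1.5-fold higher in the cycling cells of each library. Palb2, which links BRCA1 to BRCA2, had 5.22, 6.92 and 8.53 CPM in cycling cells, against 1.03, 0.688 and 1.0 CPM in noncycling cells. Brca2, a mediator of recombination, had 21.6, 22.3 and 18.7 CPM in cycling cells, against 7.27, 6.00 and 6.14 CPM in noncycling cells. Brca2 had the smaller ratios of this pair, 1.57, 1.89 and 1.60 on the log2 scale against 2.34, 3.33 and 3.08 for Palb2.

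Among the factors of strand exchange, Rad51ap1, which stimulates strand pairing, was almost absent from noncycling cells. It had 21.6, 24.0 and 22.7 CPM in cycling cells of the CIA+VFX, CIA and Cont libraries, against 0.330, 0.938 and 0.618 CPM in noncycling cells, the noncycling values from 8, 15 and 16 UMIs, and log2 ratios of 6.03 (95% interval 5.04 to 7.25), 4.68 (3.94 to 5.53) and 5.20 (4.49 to 6.02). Rad54b, a motor protein of strand exchange, had 16.4, 16.9 and 16.2 CPM in cycling cells, against 1.49, 1.38 and 1.58 CPM in noncycling cells. Its relative Rad54l had 7.66, 7.34 and 8.01 CPM in cycling cells, against 1.16, 1.0 and 1.12 CPM in noncycling cells. Xrcc2, which acts in strand exchange, had 2.63, 3.01 and 2.68 CPM in cycling cells, against 0.909, 0.813 and 1.04 CPM in noncycling cells. All 4 were at least 1.5-fold higher in cycling cells of each library, against 15.5%, 14.5% and 19.2% of all measured genes in CIA+VFX, CIA and Cont. Xrcc3, which acts at the same stage, was the single recombination gene that did not follow: it had 3.19, 3.07 and 1.94 CPM in cycling cells, against 4.58, 2.75 and 1.86 CPM in noncycling cells, with log2 ratios of -0.52 (95% interval -0.92 to -0.12), 0.16 (-0.45 to 0.77) and 0.06 (-0.53 to 0.66).

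The nuclease and helicase of the group had some of the widest gaps. Exo1, which resects broken ends, had 16.8, 14.5 and 16.2 CPM in cycling cells of the CIA+VFX, CIA and Cont libraries, against 0.620, 0.250 and 0.580 CPM in noncycling cells, from 15, 4 and 15 noncycling UMIs. The Bloom helicase gene Blm, which dissolves joined recombination intermediates, had 77.7, 60.3 and 83.7 CPM in cycling cells, against 8.05, 5.50 and 9.74 CPM in noncycling cells, log2 ratios of 3.27, 3.45 and 3.10. Summed over the 11 recombination genes, the level was 265, 232 and 273 CPM in cycling cells and 34.1, 25.8 and 32.3 CPM in noncycling cells, 7.78, 8.98 and 8.45 times as high. Cells with intermediate cycle scores lay between, at 51.0, 49.9 and 62.8 CPM.

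In the Fanconi pathway, 5 of 6 genes were at least 1.5-fold higher in cycling cells of each library. Fancd2 and Fanci encode the clamp that is ubiquitinated at crosslinks. Fancd2 had 13.0, 12.8 and 10.1 CPM in cycling cells, against 1.90, 0.688 and 1.31 CPM in noncycling cells, and Fanci had 8.95, 7.88 and 7.86 CPM in cycling cells, against 0.620, 1.75 and 0.889 CPM in noncycling cells. Both were higher in the cycling cells of every library, Fanci with log2 ratios of 3.85, 2.17 and 3.14. Fanca, of the core complex, had 9.33, 10.6 and 11.2 CPM in cycling cells, against 1.53, 1.13 and 1.24 CPM in noncycling cells. Fancm, the translocase that anchors that complex, had 31.0, 29.1 and 33.2 CPM in cycling cells, against 13.3, 9.13 and 16.4 CPM in noncycling cells. Fancb, also of the core complex, had log2 ratios of 1.14, 0.87 and 1.35. Fancc, of the same complex, was nearly level between states, with 19.5, 22.0 and 19.6 CPM in cycling cells, against 17.2, 18.7 and 17.6 CPM in noncycling cells and log2 ratios of 0.18 (95% interval 0.00 to 0.37), 0.23 (0.01 to 0.46) and 0.16 (-0.03 to 0.34). The 6 genes together were 2.36, 2.58 and 2.20 times as high in cycling cells.

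Of the base excision and strand-break genes, Lig1, the ligase that also joins Okazaki fragments, had 97.5, 92.0 and 94.2 CPM in cycling cells of the CIA+VFX, CIA and Cont libraries, against 9.46, 11.0 and 9.93 CPM in noncycling cells, log2 ratios of 3.37 (95% interval 3.17 to 3.57), 3.06 (2.84 to 3.30) and 3.25 (3.06 to 3.44). Parp1, the main sensor of strand breaks, had 93.1, 94.7 and 102 CPM in cycling cells, against 27.2, 31.8 and 35.9 CPM in noncycling cells. Its relative Parp2 and the scaffold Xrcc1 had log2 ratios of 1.05, 0.89 and 0.97, and of 1.12, 1.04 and 1.13. These 4 genes passed 1.5-fold in all 3 libraries, Lig1 by the widest margin. Ung, which removes uracil from DNA, had 10.2, 10.1 and 5.59 CPM in cycling cells, against 3.43, 3.88 and 2.28 CPM in noncycling cells. Ogg1, which removes oxidised guanine, had log2 ratios of 0.59, 0.82 and 0.49, under 1.5-fold in the Cont library. The group as a whole was 3.71, 3.31 and 3.35 times as high in cycling cells.

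The checkpoint kinases split. Chek1, the effector kinase of replication stress, had 22.3, 19.0 and 19.2 CPM in cycling cells, against 2.85, 2.50 and 2.59 CPM in noncycling cells, log2 ratios of 2.97 (95% interval 2.61 to 3.34), 2.93 (2.45 to 3.44) and 2.89 (2.52 to 3.28). Atr, which activates CHK1 at stalled forks, had log2 ratios of 1.03, 1.22 and 1.05, and Chek2 had 0.91, 1.38 and 0.86. Atm, the kinase of double-strand breaks that activates CHK2, stayed under 1.5-fold in every library, with log2 ratios of 0.52, 0.50 and 0.55. In mismatch repair, Msh6, a mismatch reader, had log2 ratios of 1.16, 0.77 and 0.90, while Pms2, of the endonuclease that follows, had 0.44, 0.52 and 0.50.

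The gaps were smaller in end joining and nucleotide excision repair, and Mgmt had none past 1.5-fold. Of the Ku subunits, which bind broken ends, Xrcc5 had 34.1, 33.9 and 26.2 CPM in cycling cells, against 28.0, 26.8 and 22.0 CPM in noncycling cells, and Xrcc6 had 20.6, 21.3 and 14.2 CPM in cycling cells, against 12.3, 12.7 and 9.00 CPM in noncycling cells. Xrcc6 was past 1.5-fold in each library and Xrcc5 in none. Lig4, the ligase of end joining, had log2 ratios of -0.20, 0.65 and 0.80. In nucleotide excision repair, the nuclease subunit Ercc4 and the helicase Ercc2 stayed under 1.5-fold in each library, at -0.10, 0.02 and 0.28, and at 0.17, 0.14 and 0.49. The nuclease Ercc5 had 34.0, 40.8 and 27.7 CPM in cycling cells, against 38.7, 36.2 and 31.5 CPM in noncycling cells, and Ercc1, the partner of ERCC4, had log2 ratios of 0.60, 0.38 and 0.94. The summed excision genes were 1.06, 1.16 and 1.25 times as high in cycling cells, and the end joining genes 1.33, 1.40 and 1.33 times. Mgmt had 6.23, 11.5 and 3.13 CPM in cycling cells, against 7.10, 13.8 and 4.33 CPM in noncycling cells, and log2 ratios of -0.19 (95% interval -0.49 to 0.11), -0.26 (-0.55 to 0.03) and -0.47 (-0.89 to -0.05). Its cycling value was the lower in each library, and under 1.5-fold apart.

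**Figure D1:**
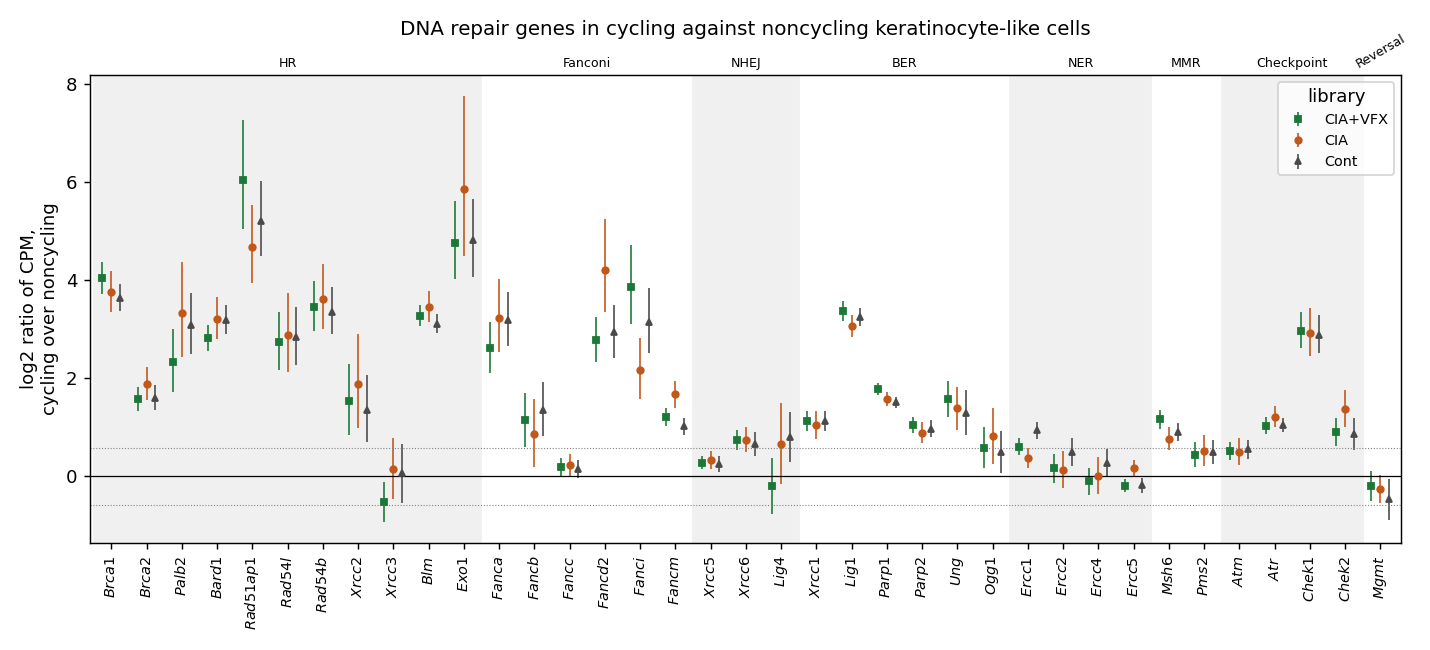
Log2 ratio of the summed level in cycling over noncycling keratinocyte-like cells for the 37 members, grouped by pathway, with points for the CIA+VFX, CIA and Cont libraries, whiskers for the 95% counting intervals and dotted lines at 1.5-fold. In each library 27 members lie beyond the upper line and 0 beyond the lower.

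The cycling cells were also the deeper ones, with medians of 14038, 13003 and 19651 UMIs, against 8130, 7803 and 11306 in noncycling cells. With every cell thinned to 2000 UMIs, the members' median log2 ratio was 1.11, 1.02 and 1.10. In thinned cells 19, 16 and 14 members were at least 1.5-fold higher and 0 lower, against 27 higher in each library without thinning. Fewer members reached 50 UMIs after thinning. Neither their number nor the share of all genes after thinning is given here, so the excess over all genes at equal depth is not described. Of the 80 values of a member in a library that passed 1.5-fold with an interval away from 0, 61 stayed past it under every alternative processing in which they could be measured. A further list of 71 repair genes, none of them a member, was measured for 71, 70 and 70 genes, of which 33, 32 and 32 were at least 1.5-fold higher in cycling cells and 2, 0 and 3 at least 1.5-fold lower, against 15.5%, 14.5% and 19.2% of all measured genes higher and 23.1%, 18.7% and 26.5% lower in CIA+VFX, CIA and Cont. Among its highest ratios were those of the glycosylase Neil3 (log2 5.48, 5.15 and 6.03) and the polymerase Polq (3.95, 5.42 and 4.34).

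Within cycling keratinocyte-like cells, those leaning to S phase by the S and G2/M gene lists had higher levels of several members than those leaning to G2/M. There were 976, 494 and 609 S-leaning cells and 963, 620 and 535 G2/M-leaning cells. At least 1.5-fold higher in S-leaning cells were 10 of 37, 10 of 36 and 7 of 37 members, against 3.30%, 4.10% and 2.97% of all measured genes. At least 1.5-fold lower were 1, 0 and 0 members, against 7.97%, 6.46% and 2.91%, the 1 member being Xrcc3 in the CIA+VFX library with a log2 ratio of -0.66. The 5 members past 1.5-fold in every library were Brca2, Rad51ap1, Rad54l, Lig1 and Ung.

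Ung had the widest gap, 16.5, 16.4 and 8.18 CPM in S-leaning cells, against 3.91, 5.16 and 2.84 CPM in G2/M-leaning cells (log2 ratios 2.07, 1.67 and 1.53). Lig1 had 135, 134 and 121 CPM in S-leaning cells, against 60.0, 58.5 and 65.5 CPM in G2/M-leaning cells (log2 ratios 1.17, 1.20 and 0.89). Rad51ap1 had 28.5, 35.2 and 27.2 CPM in S-leaning cells, against 14.7, 15.2 and 17.9 CPM in G2/M-leaning cells (log2 ratios 0.96, 1.22 and 0.60). The S-leaning value was the higher in each library for all 3 genes. Rad54l had 10.1, 11.2 and 11.0 CPM in S-leaning cells, against 5.24, 4.30 and 4.83 CPM in G2/M-leaning cells (log2 ratios 0.94, 1.38 and 1.19), and Brca2 had 26.1, 28.9 and 22.4 CPM in S-leaning cells, against 17.0, 17.0 and 14.7 CPM in G2/M-leaning cells (log2 ratios 0.62, 0.77 and 0.61). Brca1, Parp1 and Chek1 passed 1.5-fold in the CIA+VFX and CIA libraries alone, and in the Cont library they had log2 ratios of 0.49, 0.33 and 0.39. Exo1 and Fanca passed it in the CIA+VFX library, Xrcc2 in the CIA and Cont libraries and Msh6 in the CIA library. Mgmt passed it in the Cont library with an interval that reached below 0 (log2 ratio 0.62, -0.05 to 1.30).

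**Figure D2:**
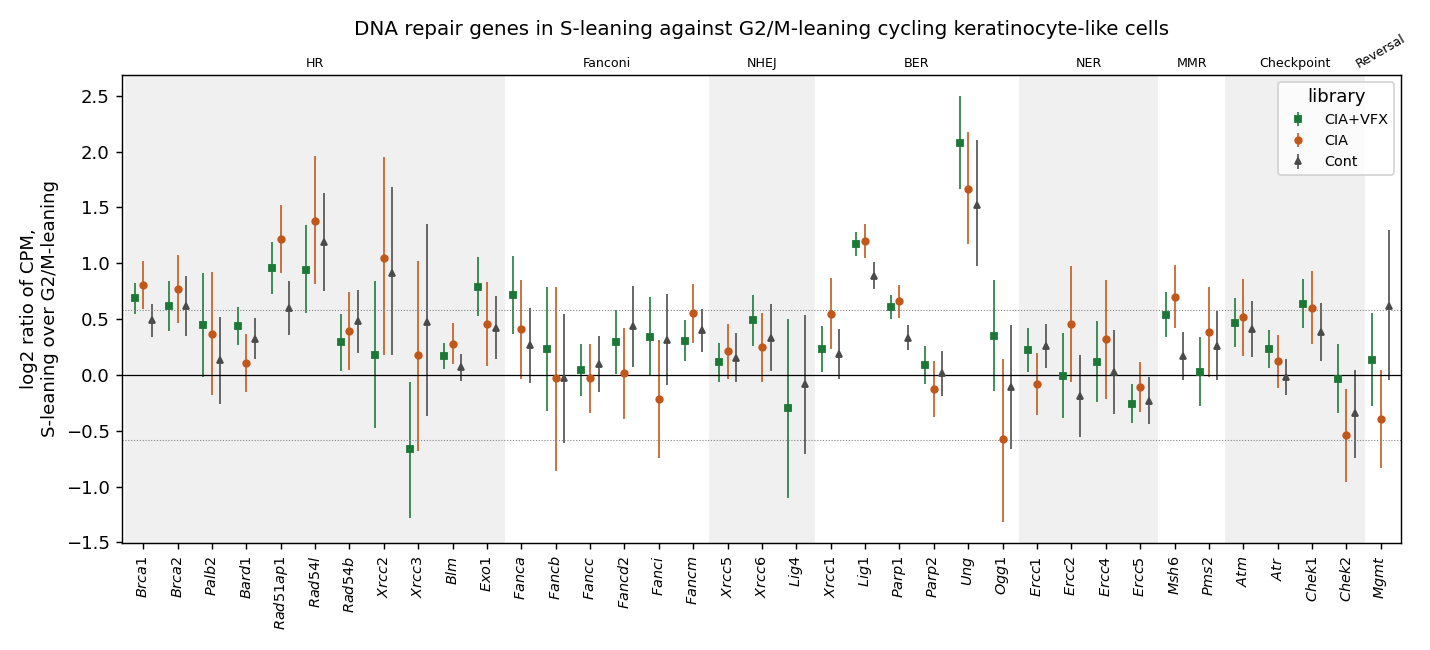
Log2 ratio of the summed level in S-leaning over G2/M-leaning cycling keratinocyte-like cells for the members, with points for the CIA+VFX, CIA and Cont libraries, whiskers for the 95% counting intervals and dotted lines at 1.5-fold. Ung lies highest in each library, and Brca2, Rad51ap1, Rad54l and Lig1 also lie beyond the upper line in all 3.

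The CIA library was then compared with the Cont library within each state, to ask which repair genes differed in skin of the alopecia model. In cycling keratinocyte-like cells 5 of the 37 members were at least 1.5-fold higher in CIA and 1 was at least 1.5-fold lower, against 16.6% and 6.87% of all measured genes. Their median log2 ratio was -0.03, against 0.03. Mgmt, which strips alkyl groups from guanine and is used up in doing so, stood apart with 11.5 CPM in CIA cells, against 3.13 CPM in Cont cells (log2 ratio 1.88, 1.51 to 2.27), 3.69 times as high. Ung had 10.1 CPM in CIA cells, against 5.59 CPM in Cont cells (log2 ratio 0.86, 0.53 to 1.18). Both were higher in CIA with intervals well away from 0. Chek2 had 13.2 CPM in CIA cells, against 8.27 CPM in Cont cells (log2 ratio 0.67, 0.40 to 0.95), Xrcc6 had 21.3 CPM in CIA cells, against 14.2 CPM in Cont cells (log2 ratio 0.59, 0.37 to 0.80), and Xrcc3 had 3.07 CPM in CIA cells, against 1.94 CPM in Cont cells (log2 ratio 0.66, 0.08 to 1.25). Lig4, the 1 lower member, had 2.17 CPM in CIA cells, against 3.43 CPM in Cont cells (log2 ratio -0.66, -1.26 to -0.09). The other 31 members had log2 ratios of -0.47 to 0.56, with Blm and Brca1 among the lowest at -0.47 and -0.43.

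Mgmt kept its difference under other settings, while those of the other members dropped under 1.5-fold in some and Xrcc3 changed sign. With each cell given equal weight, Xrcc3 had a log2 ratio of -0.05, Ung 0.43, Chek2 0.39, Xrcc6 0.53 and Lig4 -0.48. In basal, bulge and outer root sheath-like cells alone, Ung had 0.28 and Chek2 0.51, and thinned cells gave 0.21 for Chek2. Mgmt stayed between 1.74 and 2.28 under all 15 alternatives in which it was measured. The 8 vascular endothelium markers, of a class with a high level of Mgmt, summed to 32.8, 29.3 and 22.1 CPM in the Keratinocyte group of CIA+VFX, CIA and Cont, and the 11 T, NK and innate lymphoid markers to 12.2, 21.1 and 10.8 CPM.

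In noncycling keratinocyte-like cells, 31 members reached 50 UMIs in the same comparison. Those that did not were Palb2, Rad51ap1, Rad54l, Xrcc2, Exo1 and Fancd2, which were nearly absent from these cells. At least 1.5-fold higher in CIA were 3 members and at least 1.5-fold lower were 3, against 11.2% and 6.76% of all measured genes, shares near those of the members. Mgmt again differed most, with 13.8 CPM in CIA cells, against 4.33 CPM in Cont cells (log2 ratio 1.67, 1.34 to 2.02). Fanci had 1.75 CPM in CIA cells, against 0.889 CPM in Cont cells (log2 ratio 0.98, 0.13 to 1.84), from 28 and 23 UMIs, and Ung had 3.88 CPM in CIA cells, against 2.28 CPM in Cont cells (log2 ratio 0.77, 0.23 to 1.30). On the lower side, Fancm had 9.13 CPM in CIA cells, against 16.4 CPM in Cont cells (log2 ratio -0.84, -1.13 to -0.57), Blm had 5.50 CPM in CIA cells, against 9.74 CPM in Cont cells (log2 ratio -0.82, -1.19 to -0.47) and Atr had 15.1 CPM in CIA cells, against 22.8 CPM in Cont cells (log2 ratio -0.60, -0.82 to -0.38). With equal weight per cell Fanci had 0.43, Ung 0.01 and Atr -0.48, and in basal-like cells alone Blm had -0.13 and Atr -0.11. Mgmt and Fancm stayed past 1.5-fold under all 16 alternatives, Mgmt between 1.43 and 1.77 and Fancm between -1.51 and -0.62.

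Between the CIA+VFX and CIA libraries, Mgmt was the member furthest apart in cycling cells. In cycling keratinocyte-like cells 0 of 37 members were at least 1.5-fold higher and 1 was at least 1.5-fold lower, against 2.23% and 6.24% of all measured genes, and the other 36 had log2 ratios of -0.41 to 0.37. The 1 lower member was Mgmt, with 6.23 CPM in CIA+VFX cells, against 11.5 CPM in CIA cells (log2 ratio -0.89, -1.18 to -0.60). In noncycling cells Mgmt had 7.10 CPM in CIA+VFX cells, against 13.8 CPM in CIA cells (log2 ratio -0.96, -1.26 to -0.67). It was lower in CIA+VFX in both states, and stayed so by at least 1.5-fold under all 16 alternatives of each.

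Of the 31 members measured in noncycling cells, 4 were at least 1.5-fold higher in CIA+VFX and 1 (Mgmt) lower, against 3.74% and 4.46% of all measured genes. Fancd2 had 1.90 CPM in CIA+VFX cells, against 0.688 CPM in CIA cells (log2 ratio 1.47, 0.50 to 2.56), from 46 and 11 UMIs, Bard1 had 5.29 CPM in CIA+VFX cells, against 3.31 CPM in CIA cells (log2 ratio 0.67, 0.20 to 1.16), and Xrcc3 had 4.58 CPM in CIA+VFX cells, against 2.75 CPM in CIA cells (log2 ratio 0.74, 0.22 to 1.28). Lig4 had an interval that reached below 0, at 0.61 (-0.13 to 1.41). Bard1 rested on 128 and 53 UMIs and Xrcc3 on 111 and 44. With equal weight per cell Bard1 had 0.48 and Xrcc3 0.53, whereas Fancd2 stayed between 1.02 and 1.77.

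Set against the Cont library, CIA+VFX also had the higher Mgmt level in both states. Cycling cells had 3 of 37 members at least 1.5-fold higher and 2 lower, against 12.9% and 4.66% of all measured genes. Mgmt had 6.23 CPM in CIA+VFX cells, against 3.13 CPM in Cont cells (log2 ratio 0.99, 0.62 to 1.38), Ung had 10.2 CPM in CIA+VFX cells, against 5.59 CPM in Cont cells (log2 ratio 0.87, 0.58 to 1.16), and Xrcc3 had 3.19 CPM in CIA+VFX cells, against 1.94 CPM in Cont cells (log2 ratio 0.72, 0.23 to 1.23). On the lower side Lig4 had 1.83 CPM in CIA+VFX cells, against 3.43 CPM in Cont cells (log2 ratio -0.90, -1.40 to -0.41), and Palb2 had 5.22 CPM in CIA+VFX cells, against 8.53 CPM in Cont cells (log2 ratio -0.71, -1.01 to -0.41). In noncycling cells 3 of 33 members were at least 1.5-fold higher and 0 lower, against 9.31% and 5.88%. These were Xrcc3 (1.31, 0.80 to 1.83), Mgmt (0.71, 0.36 to 1.07) and Ung (0.59, 0.09 to 1.09) on the log2 scale. With equal weight per cell they had 0.45, 0.19 and 0.26. For Xrcc3, 92 of the 111 CIA+VFX UMIs came from 127 sebocyte-like cells, and noncycling basal-like cells had 0.790 CPM in CIA+VFX and 0.844 CPM in Cont, from 10 and 13 UMIs. In cycling cells, Palb2 had -0.52 and Lig4 -0.45 with cycle states from unthinned counts, Xrcc3 had 0.41 with equal weight per cell, and Ung had 0.41 in basal-like cells alone. The comparisons share libraries, so they are not independent of each other: Mgmt in cycling cells stood at 6.23, 11.5 and 3.13 CPM in CIA+VFX, CIA and Cont, and Ung at 10.2, 10.1 and 5.59 CPM.

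**Figure D3:**
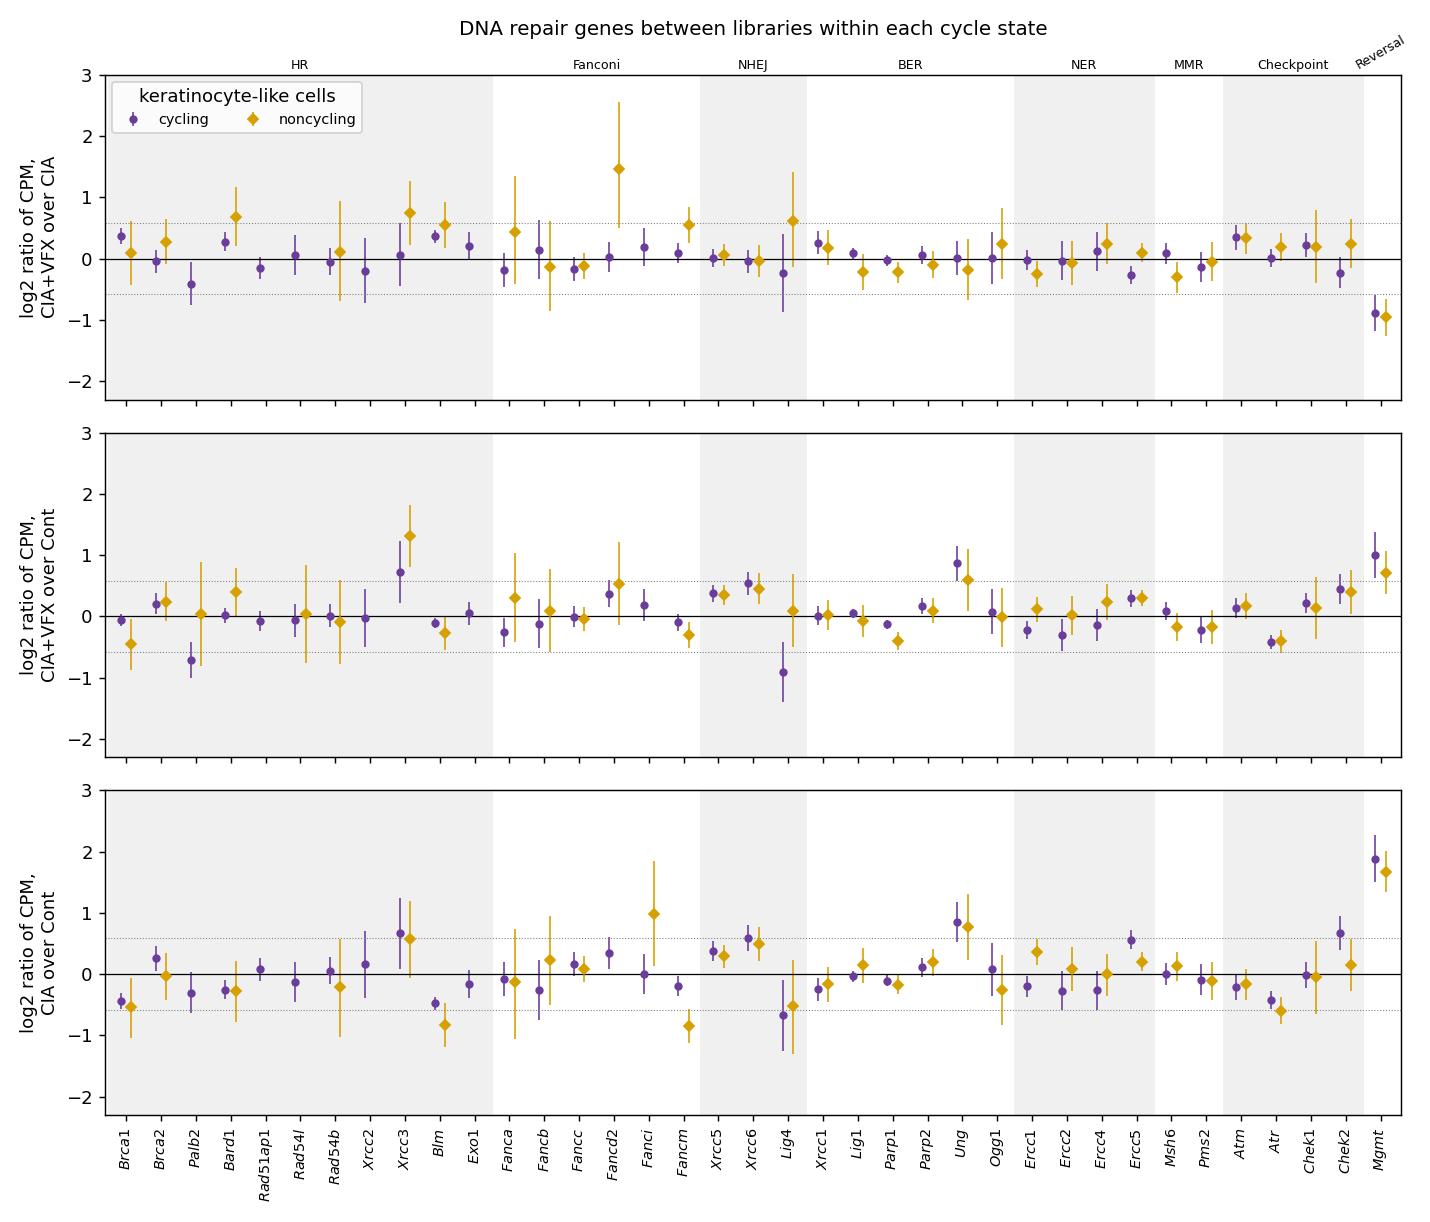
Log2 ratio of the summed level between libraries for the members in cycling (circles) and noncycling (diamonds) keratinocyte-like cells, with 95% counting intervals and dotted lines at 1.5-fold, in panels for CIA+VFX over CIA, CIA+VFX over Cont and CIA over Cont. Mgmt lies past 1.5-fold in both states of each panel, on the lower side in CIA+VFX over CIA and on the higher side in the other 2.

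The make-up of the compared cells moved with the library. Basal, bulge and outer root sheath-like cells were 41.2%, 53.1% and 23.3% of cycling keratinocyte-like cells in CIA+VFX, CIA and Cont, and inner root sheath-like cells made up 15.8%, 11.6% and 31.4%. The sebocyte-like share was 2.89%, 1.44% and 0.524%. Over the whole Keratinocyte group the 9 basal markers summed to 4348, 5691 and 2764 CPM, the 8 inner root sheath markers to 3123, 3933 and 4501 CPM and the 9 sebocyte markers to 1611, 1278 and 738 CPM. In basal-like cells alone, Mgmt had 16.2 CPM in CIA cells, against 3.89 CPM in Cont cells (log2 ratio 2.06, 1.34 to 2.86) in the cycling state. In those cells 2 of 32 members were at least 1.5-fold higher in CIA and 3 lower, against 13.1% and 7.94% of all measured genes, the lower ones being Brca1 (-0.77, -1.01 to -0.52), Palb2 (-0.99, -1.65 to -0.33) and Atr (-0.62, -0.90 to -0.35). Xrcc6 was the other higher one, with 0.77 (0.36 to 1.20). What part the make-up had in the differences, that of Mgmt among them, was not tested.

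Over all keratinocyte-like cells, the recombination genes summed to 147, 116 and 140.0 CPM in CIA+VFX, CIA and Cont. Each library was then weighted to the shares of UMIs, not of cells, that the cycle states held in Cont (42.6% for cycling cells). This gave 136 and 118 CPM for CIA+VFX and CIA. The log2 ratio of CIA+VFX to CIA was 0.33 as pooled and 0.20 after weighting, and that of CIA to Cont was -0.27 and -0.25. Mgmt was at 6.61, 12.7 and 3.81 CPM, and its log2 ratio of CIA to Cont was 1.73 both ways. The end joining genes summed to 50.2, 48.5 and 38.1 CPM. All 37 members together summed to 601, 554 and 571 CPM.

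Across cell classes with at least 50 Mgmt UMIs, Mgmt was highest in vascular endothelium-like cells in every library, at 29.7, 39.5 and 17.7 CPM in CIA+VFX, CIA and Cont, where CIA over Cont had a log2 ratio of 1.16 (0.74 to 1.60). In T, NK and innate lymphoid-like cells, called lymphoid-like below, Mgmt had 16.0, 19.8 and 5.47 CPM and a log2 ratio of CIA over Cont of 1.86 (1.29 to 2.45). In basal, bulge and outer root sheath-like cells it had 9.50, 18.0 and 5.47 CPM (1.72, 1.43 to 2.01), and in dermal papilla-like cells 9.60, 14.8 and 5.83 CPM (1.34, 0.90 to 1.79). In these 4 classes the order was CIA, CIA+VFX, Cont from high to low. Macrophage and monocyte-like cells had another order, with Mgmt at 9.06, 18.7 and 13.6 CPM and a log2 ratio of CIA+VFX over CIA of -1.05 (-1.47 to -0.65). Fibroblast-like cells had 12.0, 15 and 12.4 CPM, and pericyte and smooth muscle-like cells 18.5, 20.5 and 20.5 CPM, the last from 14 UMIs, and both were close between libraries. Inner root sheath-like cells were low in all libraries, at 2.20, 1.25 and 1.91 CPM, and dendritic-like cells at 1.74, 1.67 and 1.86 CPM.

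**Figure D4:**
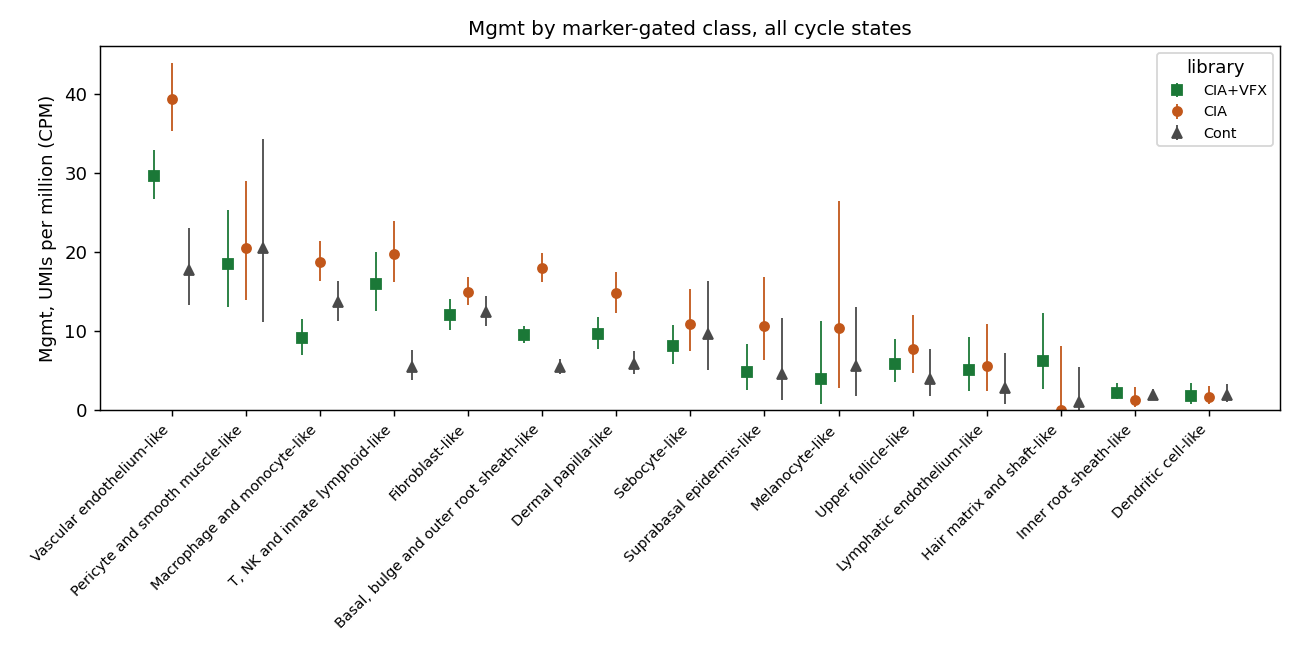
Level of Mgmt in CPM, with 95% counting intervals, in the cell classes that held at least 50 cells in every library, for CIA+VFX, CIA and Cont. Vascular endothelium-like cells are highest in CIA+VFX and CIA (29.7 and 39.5 CPM), and in Cont (17.7 CPM) their interval overlaps that of pericyte and smooth muscle-like cells (20.5 CPM).

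Xrcc3 was highest by far in 1 class. Sebocyte-like cells had Xrcc3 at 23.5, 18.8 and 25.7 CPM, from 131, 57 and 35 UMIs in 316, 131 and 68 cells, while no other class of at least 50 cells reached 5 CPM in any library. In noncycling keratinocyte-like cells, 92 of the 111 Xrcc3 UMIs of CIA+VFX and 34 of the 44 of CIA came from sebocyte-like cells, and basal-like cells gave 10, 6 and 13. Sebocyte-like cells were 5.89%, 5.37% and 2.45% of noncycling keratinocyte-like cells, and 2.89%, 1.44% and 0.524% of cycling ones. Without them, Xrcc3 in cycling cells had a log2 ratio of CIA to Cont of 0.39.

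Other members had class patterns of their own. Of those named below, Fancc and Pms2 overlap another gene on the same strand, and the part of that overlap in their counts was not tested. Fancc was high in fibroblast-like cells (67.1, 67.3 and 38.5 CPM) and dermal papilla-like cells (67.2, 60.3 and 54.5 CPM), and in fibroblast-like cells its log2 ratios were 0.80 (0.64 to 0.96) for CIA+VFX over Cont and 0.81 (0.66 to 0.96) for CIA over Cont. Xrcc5 was highest in melanocyte-like cells, at 143, 104 and 281 CPM from 111, 40 and 252 UMIs, with a log2 ratio of CIA over Cont of -1.44 (-1.96 to -0.95). In dendritic-like cells the same gene was near 1 CPM (1.52, 0.834 and 0.464). Parp1 in dendritic-like cells was at 55.6, 60.4 and 23.8 CPM, with log2 ratios of 1.22 (0.93 to 1.52) for CIA+VFX over Cont and 1.34 (1.07 to 1.62) for CIA over Cont. Macrophage and monocyte-like cells had Parp1 at 37.6, 38.6 and 20.4 CPM. Both myeloid classes were higher for Parp1 in CIA+VFX and in CIA than in Cont. Ercc5 was highest in upper follicle-like cells in each library, at 64.6, 56.5 and 44.8 CPM. Among classes with at least 50 UMIs of the gene, Pms2 and Ercc4 were highest in lymphoid-like cells of each library, Pms2 at 15.6, 20.9 and 21.3 CPM and Ercc4 at 13.9, 14.7 and 14.9 CPM.

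The gap between cycling and noncycling cells was also present in single classes. In basal, bulge and outer root sheath-like cells 26 of 34, 21 of 31 and 27 of 33 measured members were at least 1.5-fold higher in cycling cells of CIA+VFX, CIA and Cont, against 19.7%, 18.7% and 29.7% of all measured genes. In inner root sheath-like cells the counts were 16 of 26, 11 of 15 and 23 of 32, against 22.0%, 27.5% and 15.7%. In lymphoid-like cells they were 7 of 17, 11 of 20 and 6 of 15, against 14.0%, 12.8% and 10.0%. In dendritic-like cells they were 5 of 8, 3 of 10 and 5 of 7, against 12.7%, 9.70% and 15.6%. A member near 0 in noncycling cells reached 50 UMIs only through the cycling ones, so these counts describe the measured members alone.

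Among lymphoid-like cells Brca1 had 54.0, 79.0 and 65.8 CPM in cycling cells, against 9.43, 6.52 and 7.90 CPM in noncycling cells, and Lig1 had 111, 118 and 84.8 CPM in cycling cells, against 22.0, 24.1 and 8.69 CPM in noncycling cells. In dendritic-like cells Lig1 had 103, 62.7 and 50.6 CPM in cycling cells, against 9.46, 14.1 and 8.21 CPM in noncycling cells, and Blm had 39.3, 30.9 and 35.3 CPM in cycling cells, against 4.14, 5.64 and 4.81 CPM in noncycling cells. In each library these cycling values lay above the noncycling value of the same gene and class. Mgmt went the other way in lymphoid-like cells of CIA+VFX, with 9.99 CPM in cycling and 22.0 CPM in noncycling cells (log2 ratio -1.14). Cycling cells were 38.8%, 37.9% and 25.8% of this class in CIA+VFX, CIA and Cont, 35.0%, 34.3% and 16.7% of dendritic-like cells and 29.8%, 29.9% and 16.0% of basal-like cells.

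Levels over all cells of a class, cycling or not, were then compared. Over basal-like cells of all states 9 of 37 members were at least 1.5-fold higher in CIA than in Cont, against 14.1% of all measured genes, among them Mgmt (1.72), Ung (0.97), Xrcc6 (0.93) and Lig1 (0.75). Of CIA+VFX against Cont there were 17 of 37, against 11.3%, among them Ung (1.03), Bard1 (1.03) and Lig1 (0.83). In dendritic-like cells 10 of 19 were higher in CIA than in Cont, against 18.3%, and in lymphoid-like cells 11 of 28, against 13.3%. The 17 recombination and Fanconi genes summed to 181, 152 and 126 CPM in basal-like cells of CIA+VFX, CIA and Cont, to 218, 245 and 176 CPM in lymphoid-like cells and to 132, 107 and 81.9 CPM in dendritic-like cells. Inner root sheath-like cells had 242, 226 and 228 CPM, and fibroblast-like cells, of which 3.97%, 3.51% and 2.36% were cycling, had 102, 96.0 and 68.0 CPM. In suprabasal epidermis-like and sebocyte-like cells the sum was highest in Cont, where the measured cycling share was lowest. Suprabasal epidermis-like cells had shares of 12.2%, 13.3% and 5.88% and sums of 54.1, 47.3 and 81.9 CPM in CIA+VFX, CIA and Cont. Sebocyte-like cells had shares of 23.3%, 13.2% and 10.0% and sums of 99.7, 83.6 and 109 CPM. These classes held 53 and 68 cells in Cont, and the Cont shares rested on 3 and 6 cycling cells. Their counting intervals, 1.23% to 16.2% and 3.76% to 20.5%, overlapped those of CIA+VFX and CIA, so the order of the shares is uncertain. What part the cycling share had in the differences between libraries was not tested. Across 18, 20 and 17 classes the summed level had a Pearson r with the cycling share of 0.87, 0.83 and 0.94 and a Spearman rho of 0.49, 0.59 and 0.65 in the 3 libraries, as a description, since the classes of a library share its processing and their depths differ.

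**Figure D5:**
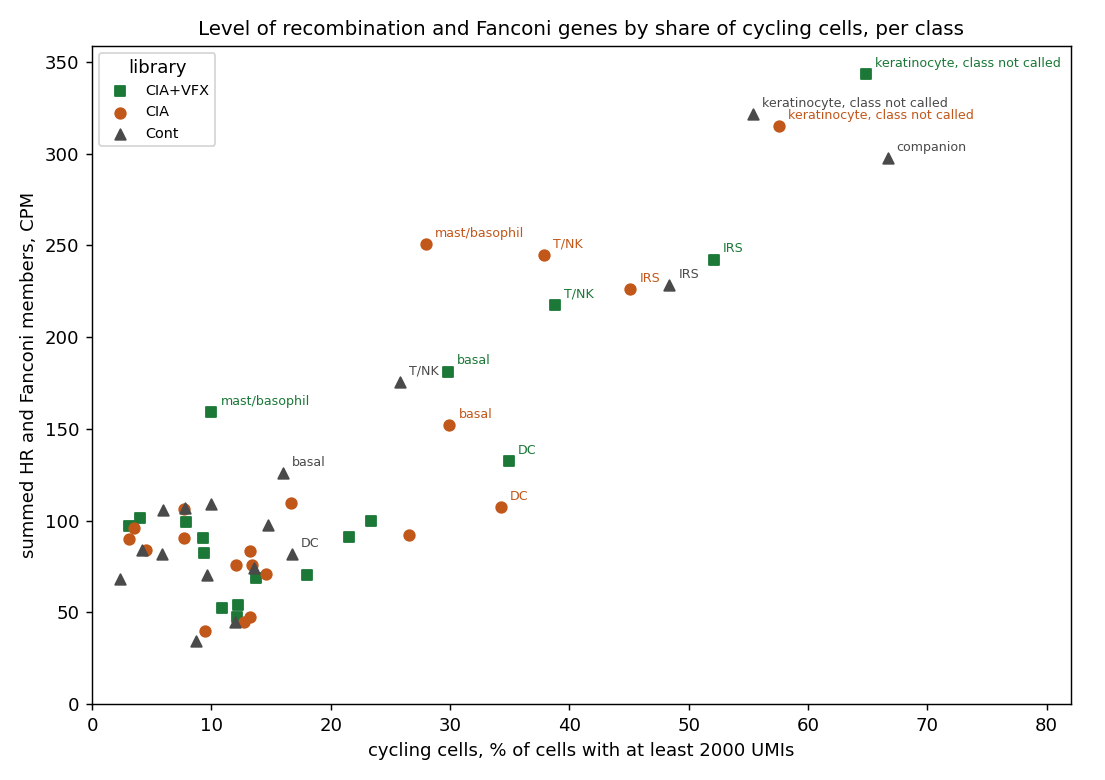
Summed level of the 17 recombination and Fanconi members in CPM against the percentage of cycling cells, a point per cell class and library with at least 50 cells, for CIA+VFX, CIA and Cont. Keratinocytes of no called class, companion layer-like, inner root sheath-like and lymphoid-like cells lie at the upper right, and most stromal classes at the lower left.

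Blm was also high in a class outside the keratinocytes. Mast cell and basophil-like cells had Blm at 102 CPM in CIA+VFX and 127 CPM in CIA, from 45 and 73 UMIs, and fewer than 50 such cells were kept in Cont. In the same cells the 17 recombination and Fanconi genes summed to 159 CPM in CIA+VFX and 251 CPM in CIA. The cycling shares of this class were 10.0% and 28.0%, from 9 and 26 cycling cells. What part the cycling share had in these sums was not tested.

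Of the 71 further repair genes, 4 were at least 1.5-fold higher in CIA than in Cont in cycling keratinocyte-like cells and 0 lower among 70 measured, against 16.6% and 6.87% of all measured genes. The 3 with the highest ratios were Rad51c (log2 0.86), Alkbh2 (0.85) and Ube2t (0.78). In noncycling cells 2 of 68 were higher, Polk (0.75) and Ddb2 (0.59), against 11.2% of all measured genes. Of CIA+VFX over CIA, Hus1 was the 1 gene past 1.5-fold in cycling cells (0.62), and Hus1 (0.75) and Smug1 (0.70) passed it in noncycling cells, against 2.23% and 3.74% of all measured genes higher in cycling and in noncycling cells. From a list of 22 p53 target genes, 6 were at least 1.5-fold higher in CIA than in Cont in cycling cells and 0 lower, against 16.6% and 6.87% of all measured genes. In noncycling cells 4 were higher and 1 lower, against 11.2% and 6.76%. In CIA+VFX against CIA, 0 were higher and 1 lower in cycling cells, against 2.23% and 6.24%, and 0 higher and 2 lower in noncycling cells, against 3.74% and 4.46%.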

How the data were processed

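Cell Ranger 8.0.1, named in the file headers, gave the UMI counts of genes in cells that the authors deposited, with a sparse matrix for each library. GRCm39 and FastQC 0.11.7 stand in the submitters' processing notes. Whether counting used strand is not given in the sources used here.

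Barcodes were kept with 500 or more genes and 15% or less of mitochondrial UMIs. Doublets were scored by how many of 30 neighbours were simulated pairs (2 simulated for every cell), and 7.59%, 7.07% and 5.81% of cells were removed in CIA+VFX, CIA and Cont. Classes were called from marker scores, with thresholds set after the cells were seen, and 17.3%, 18.3% and 19.1% of cells were given no class. On cells thinned to 2000 UMIs, cycling meant at least 2 G2/M or 3 S phase UMIs, and noncycling 0 G2/M and at most 1 S phase UMI. UMIs were summed per library, class and state where at least 50 cells were present, and compared as log2 ratios of CPM with exact conditional binomial 95% intervals for members with at least 50 UMIs over both sides. A member was named with its values where it was at least 1.5-fold apart with an interval away from 0, and others are given for contrast. Sets were given no test because each group was 1 library.

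The members, the other gene lists and the alternatives were chosen with earlier results of these data known. The alternatives were other scalings (including edgeR 4.0.16 TMM factors), minimum UMIs, thinning, equal weight per cell, cell filters, doublets kept, cycle and class gates and 5% free RNA subtracted, and 2 more, chosen after seeing the data, left out sebocyte-like cells or kept basal, bulge and outer root sheath-like cells alone. The code was tested on simulated data. Python 3.11.15, numpy 2.4.6, scipy 1.17.1, pandas 2.3.3, scikit-learn 1.9.0, matplotlib 3.10.9 and R 4.3.3 were used.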

Additional observations from a re-analysis of the deposited data

Results flagged for a closer look

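In 6 patterns a member was at least 1.5-fold higher in 1 class and at least 1.5-fold lower in another under the same comparison of libraries. They were picked by a search over all members, classes, states and comparisons of libraries. The same search was not made over all genes, so how often other genes do this is not known. None of these differences between classes was tested, since each group was 1 library. Among noncycling cells of CIA over Cont, Atr had log2 ratios of 0.90 in dendritic-like cells (16.9 CPM in CIA against 9.06 CPM in Cont), 0.62 in dermal papilla-like cells (12.8 CPM in CIA against 8.28 CPM in Cont) and -1.15 in lymphoid-like cells (15 CPM in CIA against 33.2 CPM in Cont). In the same comparison Blm had 1.04 in lymphoid-like cells (62.6 CPM in CIA against 30.4 CPM in Cont), 0.73 in fibroblast-like cells (3.96 CPM in CIA against 2.38 CPM in Cont) and -1.30 in inner root sheath-like cells (7.20 CPM in CIA against 17.7 CPM in Cont), and Ercc5 had 0.61 in dermal papilla-like cells (39.1 CPM in CIA against 25.7 CPM in Cont) and -0.76 in inner root sheath-like cells (14.4 CPM in CIA against 24.4 CPM in Cont). The inner root sheath-like values rested on 9 CIA UMIs for Blm (interval -2.48 to -0.30) and 18 for Ercc5 (interval -1.57 to -0.04).

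Among cycling cells of CIA+VFX over CIA, Lig1 had 0.72 in dendritic-like cells (103 CPM in CIA+VFX against 62.7 CPM in CIA) and -1.13 in macrophage and monocyte-like cells (18.5 CPM in CIA+VFX against 40.5 CPM in CIA), and Xrcc6 had 0.61 in inner root sheath-like cells (23.3 CPM in CIA+VFX against 15.3 CPM in CIA) and -0.84 in lymphoid-like cells (9.53 CPM in CIA+VFX against 17.1 CPM in CIA). Lig1 in macrophage and monocyte-like cells rested on 18 CIA+VFX UMIs. The intervals of Xrcc6 came close to 0, at 0.04 to 1.22 in inner root sheath-like and -1.67 to -0.05 in lymphoid-like cells. Among noncycling cells of CIA+VFX over Cont, Parp1 had 1.38 in dendritic-like cells (50.3 CPM in CIA+VFX against 19.3 CPM in Cont), 0.98 in macrophage and monocyte-like cells (34.8 CPM in CIA+VFX against 17.7 CPM in Cont) and -0.63 in inner root sheath-like cells (34.0 CPM in CIA+VFX against 52.5 CPM in Cont).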

How the results depend on the processing

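No paired analysis was possible because each group was 1 library. Of 144 medians of members under the alternatives, 137 stayed within the spread of the members about the reported median (its order-statistic interval), and of 144 counts of members at least 1.5-fold apart, 124 stayed within 1.5 times the reported count. Of 1574 values for 105 single-member results, 1572 kept their direction. The reversed ones were Fancb in cycling against noncycling cells of CIA (-0.11 with cycle states from unthinned counts) and Xrcc3 in cycling cells, CIA against Cont (-0.046 with equal weight per cell). Thinned to 2000 UMIs, the count of cycling against noncycling cells was 16 in CIA and 14 in Cont. Thinning gave 3 in cycling cells for CIA+VFX against CIA and 3 for CIA+VFX against Cont, and in noncycling cells 3 and 0. In cycling cells equal weight per cell gave 1 (CIA against Cont) and 2 (CIA+VFX against CIA). A minimum of 200 UMIs gave 3 for CIA+VFX against Cont in cycling cells, and 1 for CIA+VFX against CIA and 1 for CIA+VFX against Cont in noncycling cells. In noncycling cells, CIA+VFX against CIA gave 9 with a minimum of 10 UMIs or none, 3 with the stricter cell filter, 2 with unthinned cycle states and 2 without sebocyte-like cells, and CIA+VFX against Cont gave 0 with unthinned cycle states. Basal-like cells alone gave, for CIA+VFX against CIA, 2 in cycling and 3 in noncycling cells, and for CIA+VFX against Cont 2 in cycling cells. Medians of members in basal-like cells alone were -0.22 (CIA against Cont) and -0.16 (CIA+VFX against Cont) in cycling cells and 0.27 (CIA against Cont) and 0.30 (CIA+VFX against Cont) in noncycling cells, and with unthinned cycle states in noncycling cells 0.29 (CIA against Cont), -0.10 (CIA+VFX against CIA) and 0.25 (CIA+VFX against Cont). Cycling shares without thinning were 66.6%, 65.4% and 71.4% of all keratinocyte-like cells in CIA+VFX, CIA and Cont, those under 2000 UMIs included. Stricter minimums and thinning leave fewer members measured; the cause of the other changes was not tested. Of 25 single-member differences between libraries, 7 stayed past 1.5-fold under every alternative in which they were measured, 5 of them Mgmt.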
